A study of Mus musculus with 16 samples.

Results

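The transcripts of 9 dual specificity phosphatases (*Dusp1*, *Dusp2*, *Dusp4*, *Dusp5*, *Dusp6*, *Dusp8*, *Dusp10*, *Dusp14* and *Dusp16*) were measured by bulk RNA sequencing of mouse skin cells. They were chosen by gene symbol, and 9 of 9 were found among the 55487 gene IDs of the count table. The skin had been stretched by hypobaric pressure, a suction applied to its surface, and the cells were taken 6 h later and sorted by flow cytometry on CD45, the leukocyte surface protein encoded by *Ptprc*. The 4 groups of 4 libraries were CD45+ (immune) cells of stretched skin, CD45+ cells of control skin, CD45- (stromal) cells of stretched skin and CD45- cells of control skin, where control means unstretched tissue from the same area. The labels name no strain, sex, age or number of animals. Whether each sample is its own animal is not stated there either, and the p-values cover the spread between samples, which may be technical.

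Mitogen-activated protein (MAP) kinases are switched on when an upstream kinase phosphorylates a threonine and a tyrosine in their activation loop, and dual specificity phosphatases switch them off by removing both phosphates. Some of these phosphatases act in the nucleus and are themselves transcribed within minutes of MAP kinase signalling (*Dusp1*, *Dusp2*, *Dusp4*, *Dusp5*). *Dusp6* encodes a cytoplasmic enzyme selective for the kinase ERK, *Dusp8*, *Dusp10* and *Dusp16* encode enzymes that act mainly on the stress kinases JNK and p38, and *Dusp14* encodes a small atypical member without the kinase-binding domain of the others. Mechanical load, wounding and inflammatory signals all activate MAP kinases in skin.

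RefSeq promoter windows (GRCm38.p6, 250 bases before to 50 after the start) were at hand for 8 of the 9 genes, all but *Dusp4*. The 250 bases before the start are printed for the 4 genes whose window held a searched site of an immediate early regulator, at chr17:26508473-26508722 on the minus strand for *Dusp1*, chr2:127335909-127336158 on the plus strand for *Dusp2*, chr19:53528895-53529144 on the plus strand for *Dusp5* and chr7:142095285-142095534 on the minus strand for *Dusp8*. Each runs 5′ to 3′ on the strand of its gene, with the matched letters in capitals.
Dusp1: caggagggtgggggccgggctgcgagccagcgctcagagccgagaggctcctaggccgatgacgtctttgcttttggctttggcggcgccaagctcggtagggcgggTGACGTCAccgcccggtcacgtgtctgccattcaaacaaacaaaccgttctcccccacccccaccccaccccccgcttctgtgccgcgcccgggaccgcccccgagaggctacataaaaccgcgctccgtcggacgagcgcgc
Dusp2: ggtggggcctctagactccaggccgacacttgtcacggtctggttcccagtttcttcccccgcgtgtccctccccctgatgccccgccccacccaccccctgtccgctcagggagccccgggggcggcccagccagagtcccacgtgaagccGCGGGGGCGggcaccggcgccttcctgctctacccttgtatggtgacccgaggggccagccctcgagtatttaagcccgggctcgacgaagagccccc
Dusp5: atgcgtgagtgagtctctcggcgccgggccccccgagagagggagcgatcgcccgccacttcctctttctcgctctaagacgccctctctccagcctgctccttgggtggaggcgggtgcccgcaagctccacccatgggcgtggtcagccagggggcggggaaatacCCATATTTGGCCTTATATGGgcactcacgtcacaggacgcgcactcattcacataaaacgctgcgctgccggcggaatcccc
Dusp8: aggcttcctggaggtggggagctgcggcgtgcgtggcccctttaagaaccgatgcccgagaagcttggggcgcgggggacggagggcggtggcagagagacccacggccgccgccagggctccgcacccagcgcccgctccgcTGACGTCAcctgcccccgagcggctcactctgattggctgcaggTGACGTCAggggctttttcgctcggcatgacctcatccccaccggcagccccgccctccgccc
The capitals in *Dusp1* and *Dusp8* are the full cAMP response element TGACGTCA, which CREB and ATF factors bind, once in *Dusp1* and in 2 copies in *Dusp8*. It begins 143 bases before the start in *Dusp1*, and 107 and 63 bases before it in *Dusp8*. The capitals in *Dusp5* are 2 adjoining CArG boxes, the element that serum response factor binds, which begin 82 and 72 bases before the start. The capitals in *Dusp2* are the EGR factor site GCGGGGGCG, 98 bases before the start. Both strands of 32851 RefSeq windows of the same length were searched, and 1.79% held the cAMP response element, 1.63% a CArG box and 2.91% that EGR site. Searches for the AP-1 site TGANTCA (7.81% of all windows), the NF-kB site (4.51%), the EGR form GCGTGGGCG (0.612%) and the ETS site CCGGAAG (8.86%) found no match in the 8 windows. The motifs do not overlap one another in these windows, and a match describes letters, not binding.

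Libraries differed in ways that touch the values below. Total counts ranged from 7018743 to 20095580 in immune stretched, 2645421 to 6662268 in immune control, 21955174 to 26944965 in stromal stretched and 13563586 to 20467010 in stromal control libraries, so stretched libraries were deeper than their controls without overlap in each fraction. *Ptprc* lay between 320 and 568 CPM (reads on the gene scaled to a common library size) in the immune and between 0.0643 and 3.87 CPM in the stromal libraries, as the sort labels say. Of the sums over marker genes, scaled to the library total, fibroblast markers (8 genes) ran from 1367 to 9688 CPM in the immune and from 39366 to 64233 CPM in the stromal libraries. Neutrophil markers (9 genes) summed to 33701 CPM in immune stretched library 2, 175 to 824 CPM in the other immune stretched libraries, 532 to 9019 CPM in the immune controls and 7.07 to 26.8 CPM in the stromal libraries. Immune control 4 and stromal stretched 7 and 8 carried 5942, 408 and 200.3 CPM on olfactory and vomeronasal receptor genes, against 17.8 to 68.7 CPM elsewhere. The number of a library is the one in its title.

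*Dusp1* (ENSMUSG00000024190, chromosome 17, 26505590 to 26562128, minus strand, GRCm38), the nuclear phosphatase of p38 and JNK, was by far the most abundant member in every library. By mean CPM it ranked 17th of 29837 genes with a read in immune stretched, 28th of 38131 in immune control, 14th of 40046 in stromal stretched and 19th of 29293 in stromal control cells. Its level was 3979, 7368, 5647 and 5630.4 CPM in immune stretched libraries 1, 2, 7 and 8, against 3004, 1107, 2894 and 2232 CPM in immune controls 3, 4, 5 and 6. It was 4194, 4783, 4561 and 4149 CPM in stromal stretched libraries 5 to 8, against 4369, 3666, 3847 and 6189 CPM in stromal controls 1 to 4. All immune stretched values lay above all immune controls, whereas stretched and control stromal values overlapped. CPM levels of single genes are scaled by trimmed mean of M values (TMM) factors over the 16 libraries, unless the library total is named. Those of *Ptprc* above are scaled to the library total. The TMM factor was 0.686 in immune stretched 2 and 1.75 in immune control 4, against 0.864 to 1.15 in the other libraries. It raised the TMM-scaled values of immune stretched 2 and lowered those of immune control 4. By library total, *Dusp1* had 5057 CPM in immune stretched 2, below libraries 7 and 8, and 1936 CPM in immune control 4. In immune control 4, *Dusp2* had 204 CPM by library total and 117 CPM on the TMM scale. The annotated span of *Dusp1* overlaps *Ergic1* on the opposite strand, which had 30832 reads against 1051584 for *Dusp1*, and no strand setting is known.

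*Dusp2* (ENSMUSG00000027368, chromosome 2, 127336159 to 127338376, plus strand), a nuclear phosphatase of ERK and p38 known from activated leukocytes, was an immune transcript. It had 335, 447, 304 and 356 CPM in immune stretched libraries 1, 2, 7 and 8, and 202, 117, 225 and 279 CPM in immune controls 3, 4, 5 and 6. In stromal stretched libraries 5 to 8 it had 14.7, 27.1, 9.18 and 8.94 CPM, and in stromal controls 1 to 4 it had 16.6, 19.9, 9.91 and 5.49 CPM. Every immune library exceeded every stromal one. Scaled to the library total, its stromal level was 2.08% to 8.88% of the immune mean of the same treatment. *Ptprc* in the same libraries was 0.0143% to 0.900% of its own immune mean on that scale.

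*Dusp5* (ENSMUSG00000034765, chromosome 19, 53529109 to 53542431, plus strand), the nuclear ERK-selective phosphatase, was also higher in immune cells but abundant in both fractions. It had 215, 596, 260.2 and 327 CPM in immune stretched libraries 1, 2, 7 and 8, and 178, 119, 324 and 224 CPM in immune controls 3, 4, 5 and 6. Stromal stretched libraries 5 to 8 had 92.3, 105, 83.7 and 104 CPM, and stromal controls 1 to 4 had 124, 80.0, 98.2 and 57.6 CPM. Immune control 4 lay just below the highest stromal control, and the stretched fractions did not overlap. Scaled to the library total, the control fractions did not overlap either, at 181 to 292 CPM in immune and 49.8 to 120 CPM in stromal cells. *Dusp4* (ENSMUSG00000031530, chromosome 8, 34807297 to 34819894, plus strand), a nuclear phosphatase of ERK and JNK, was the least abundant member per kilobase (kb) of exon in the immune groups and was under 10 CPM in all 16 libraries. Its counts ran from 25 to 181 in immune stretched, 3 to 33 in immune control, 76 to 245 in stromal stretched and 11 to 94 in stromal control libraries, so its values carry the largest counting error of the family. It had 5.04, 5.19, 7.78 and 9.60 CPM in immune stretched libraries 1, 2, 7 and 8, and 3.26, 0.649, 0.740 and 4.59 CPM in immune controls 3, 4, 5 and 6. It had 3.49, 8.90, 9.49 and 7.79 CPM in stromal stretched libraries 5 to 8, and 7.14, 4.46, 4.06 and 0.622 CPM in stromal controls 1 to 4. All immune stretched values exceeded the immune controls, and the stromal groups overlapped.

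*Dusp6* (ENSMUSG00000019960, chromosome 10, 99263231 to 99267489, plus strand), the cytoplasmic feedback phosphatase of ERK, overlapped between all groups. It had 45.0, 65.0, 42.3 and 61.3 CPM in immune stretched libraries 1, 2, 7 and 8, and 99.4, 44.1, 36.5 and 49.9 CPM in immune controls 3, 4, 5 and 6. In stromal stretched libraries 5 to 8 it had 28.8, 42.2, 53.0 and 146 CPM, and in stromal controls 1 to 4 it had 47.1, 50.2, 18.9 and 24.1 CPM. Stromal stretched 8 and immune control 3 stood high in their groups.

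The 3 genes for JNK and p38 phosphatases divided between the fractions. *Dusp8* (ENSMUSG00000037887, chromosome 7, 142079490 to 142095843, minus strand) had 16.7, 8.51, 24.3 and 27.1 CPM in immune stretched libraries 1, 2, 7 and 8 and 19.4, 9.95, 8.14 and 15.7 CPM in immune controls 3, 4, 5 and 6. Its stromal values were higher, with 64.3, 72.8, 39.5 and 61.7 CPM in stromal stretched libraries 5 to 8 and 59.3, 47.2, 56.2 and 33.8 CPM in stromal controls 1 to 4. *Dusp10* (ENSMUSG00000039384, chromosome 1, 184013302 to 184075636, plus strand) followed the same order. It had 39.6, 33.8, 62.5 and 56.2 CPM in immune stretched libraries 1, 2, 7 and 8, 21.8, 11.7, 34.3 and 31.6 CPM in immune controls 3, 4, 5 and 6, 104, 91.0, 97.4 and 100.1 CPM in stromal stretched libraries 5 to 8, and 53.6, 83.8, 76.5 and 91.6 CPM in stromal controls 1 to 4. *Dusp16* (ENSMUSG00000030203, chromosome 6, 134715468 to 134792625, minus strand) ran the other way. It had 48.8, 164, 42.8 and 38.8 CPM in immune stretched libraries 1, 2, 7 and 8 and 67.7, 53.4, 136 and 61.3 CPM in immune controls 3, 4, 5 and 6. It had 13.5, 20.3, 18.1 and 16.4 CPM in stromal stretched libraries 5 to 8 and 20.7, 17.2, 15.3 and 14.1 CPM in stromal controls 1 to 4. None of the 3 genes overlapped between immune and stromal libraries of the same treatment. *Dusp14* (ENSMUSG00000018648, chromosome 11, 84048041 to 84069261, minus strand) was low throughout, at 8.30 to 15.9 CPM in immune stretched, 2.16 to 11 CPM in immune control, 6.58 to 11.2 CPM in stromal stretched and 8.76 to 18.7 CPM in stromal control libraries.

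**Figure D1:**
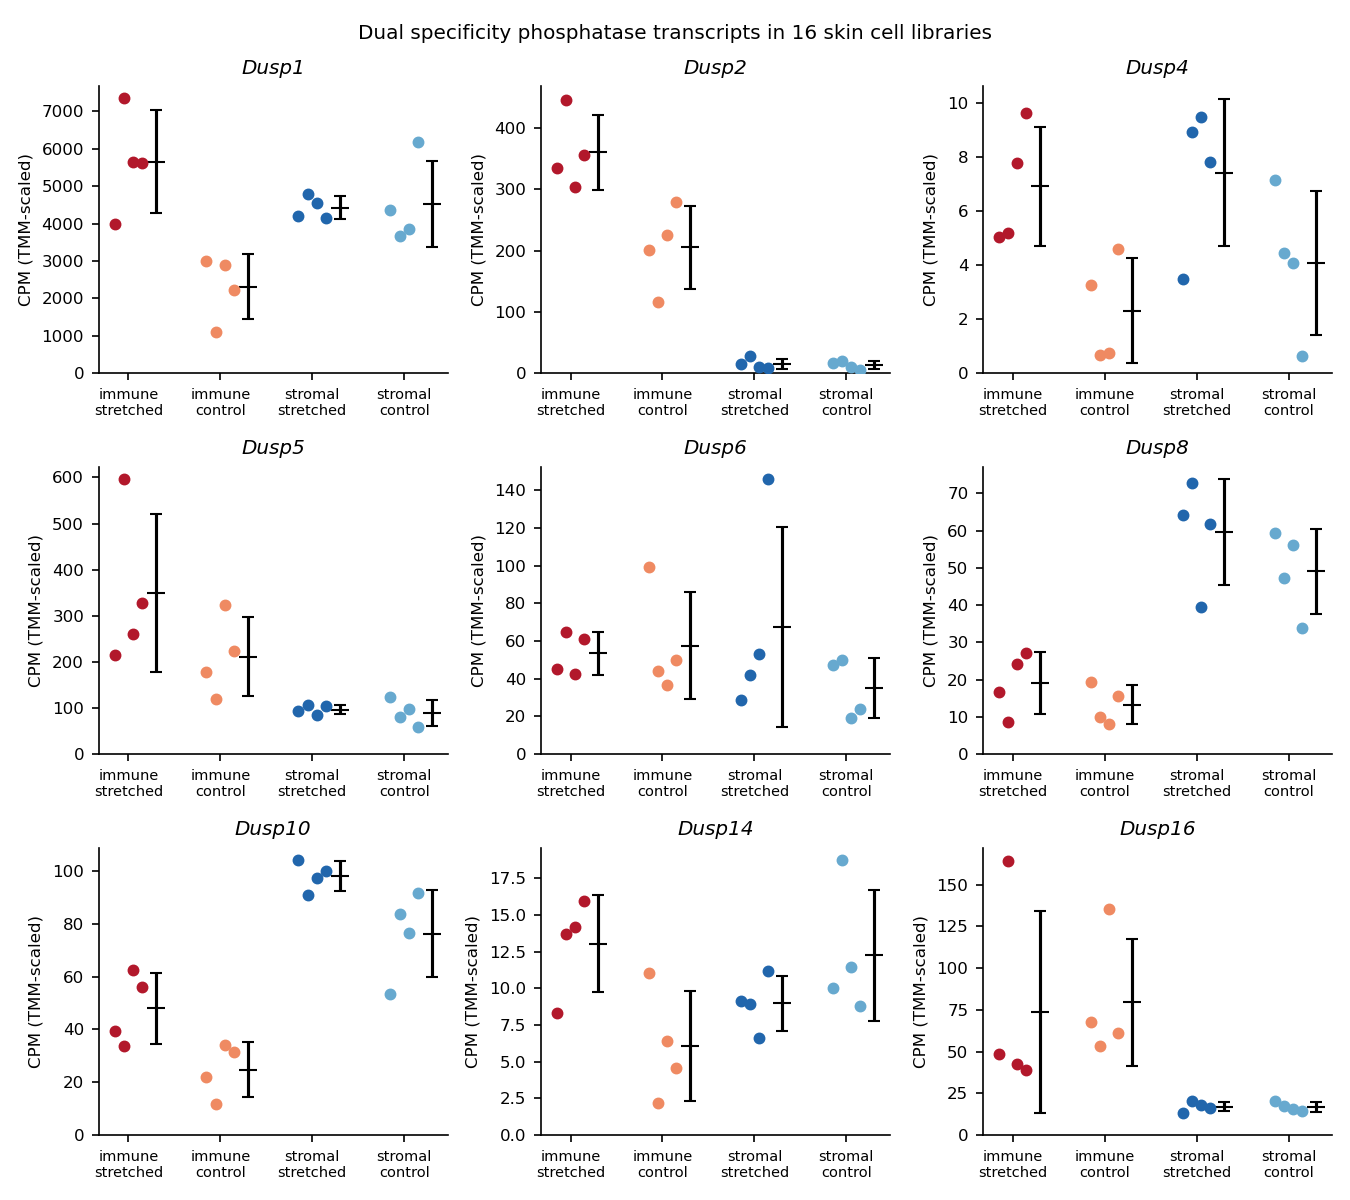
Level of each phosphatase transcript (CPM, TMM-scaled, linear axis from 0) in the 16 libraries, with 1 point per library and the mean ± SD of each group of 4 in black. *Dusp2*, *Dusp5* and *Dusp16* were high in immune cells and *Dusp8* and *Dusp10* in stromal cells, *Dusp1* in immune stretched cells lay above its immune controls, and *Dusp16* in immune stretched library 2 stood at 164 CPM.

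Because longer transcripts collect more reads, the members were compared with each other per kb of annotated exon. *Dusp1* made up 81.9 ± 1.93% of the summed CPM per kb of the 9 members in immune stretched cells, 74.4 ± 4.0% in immune control, 91.6 ± 1.55% in stromal stretched and 92.9 ± 2.18% in stromal control cells (SD, n = 4 each). *Dusp1* alone took 0.486 ± 0.0728% of all counts in immune stretched cells, 0.250 ± 0.0462% in immune control, 0.467 ± 0.0525% in stromal stretched and 0.425 ± 0.0782% in stromal control cells. With *Dusp1* set aside, *Dusp2* and *Dusp5* led in immune cells and *Dusp5* and *Dusp10* in stromal cells. *Dusp2* then made up 48.8 ± 5.75% of the rest in immune stretched and 44.3 ± 5.20% in immune control cells, but 6.23 ± 3.43% in stromal stretched and 6.27 ± 2.45% in stromal control cells. *Dusp10* made up 4.52 ± 1.86% in immune stretched and 3.42 ± 0.523% in immune control cells, but 27.0 ± 4.70% in stromal stretched and 26.4 ± 9.62% in stromal control cells. *Dusp5* held a like share in each group, with means between 32.2% and 36.4%. The rest of the pool without *Dusp1* summed to 377 ± 105 CPM per kb in immune stretched, 232 ± 69.0 in immune control, 122 ± 20.1 in stromal stretched and 99.2 ± 16.2 in stromal control cells.

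**Figure D2:**
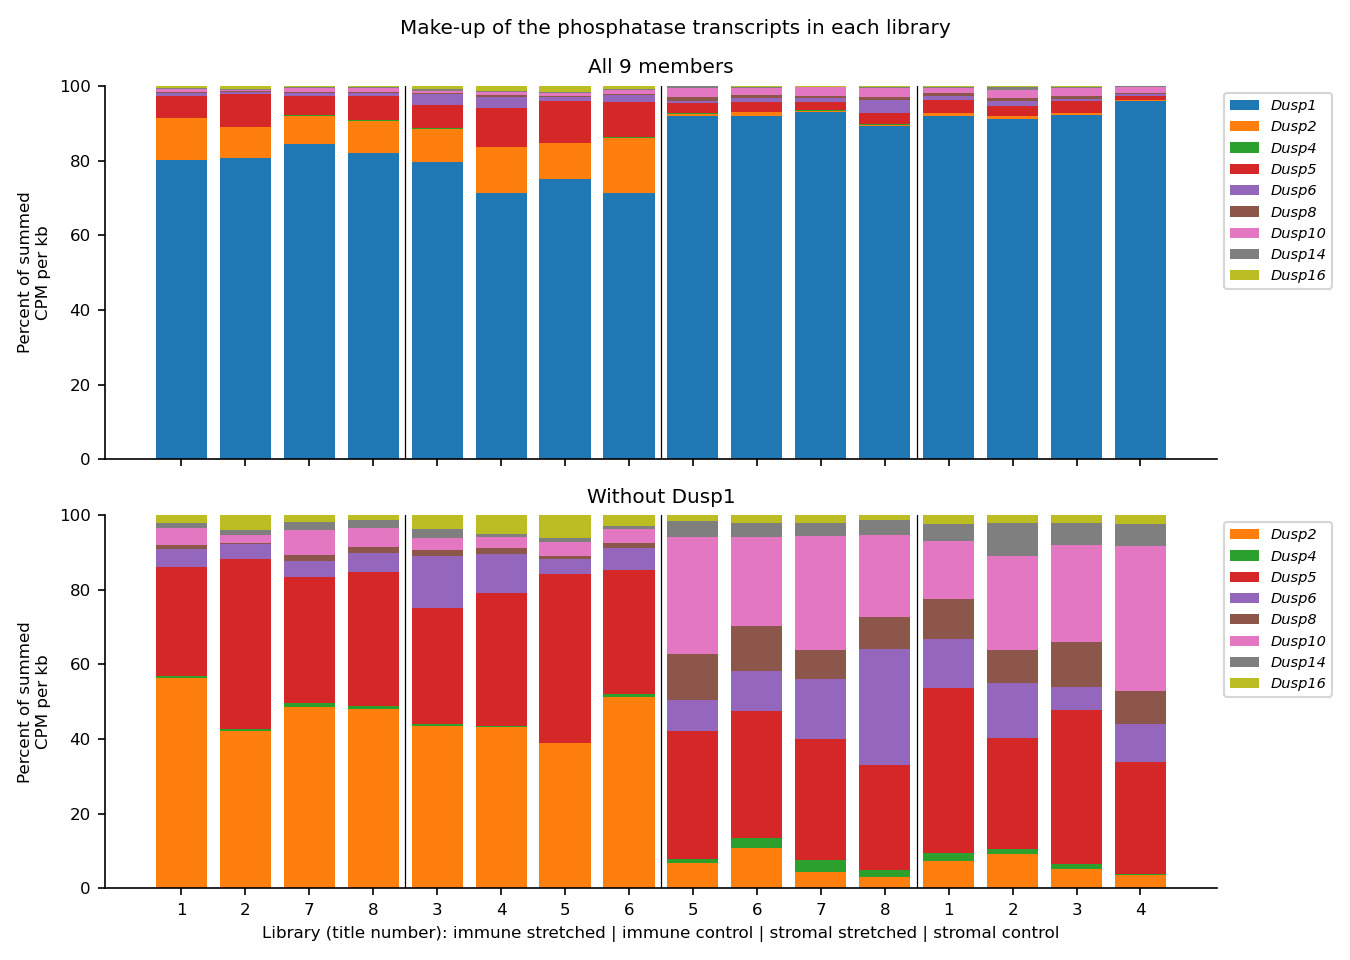
Share of each member in the summed CPM per kb of the phosphatases (percent, stacked from 0) in each library, for all 9 members above and without *Dusp1* below. *Dusp1* filled 71.3% to 96.0% of the pool in each library, and the remainder was mainly *Dusp2* and *Dusp5* in immune and *Dusp5* and *Dusp10* in stromal libraries.

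Immune and stromal cells were compared within each treatment to ask which fraction holds each phosphatase transcript. In stretched skin 3 of the 9 members were higher and 2 lower in immune cells by edgeR's quasi-likelihood test at an adjusted p under 0.05, where 23.9% of the 17116 genes tested were higher and 25.1% lower, 48.96% in all. In control skin it was also 3 higher and 2 lower, where 26.6% of 15142 genes were higher and 22.8% lower, 49.4% in all. A count of 5 in 9 is near these backgrounds. The values of 5 members did not overlap between the fractions in stretched skin (48.3% of all genes) and those of 5 in control skin (47.9%). *Dusp2*, *Dusp5*, *Dusp8*, *Dusp10* and *Dusp16* passed the test in both treatments. In control skin the 5 members without overlap included *Dusp1*, which did not pass, and left out *Dusp5*, which did. Folds come from fits on the libraries compared, and so can differ somewhat from ratios of the CPM means.

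*Dusp2* averaged 361 ± 61.3 CPM in immune stretched and 14.97 ± 8.49 CPM in stromal stretched cells (SD, n = 4 each), a log2 fold change of 4.47 ± 0.40 (SE; adjusted p = 2.12e-05 by edgeR). In control skin it averaged 206 ± 67.7 CPM in immune and 12.98 ± 6.51 CPM in stromal cells, a log2 fold change of 4.09 ± 0.43 (adjusted p = 3.31e-05). *Dusp16* was higher in immune cells by a log2 fold change of 1.97 ± 0.46 in stretched skin (adjusted p = 0.00617) and 2.36 ± 0.32 in control skin (adjusted p = 0.000165). The stretched value missed the threshold with a covariate for how many genes were detected, at 1.28 (adjusted p = 0.201), and without stromal stretched 7 and 8, at 2.04 (adjusted p = 0.0659). *Dusp5* was higher by 1.73 ± 0.32 in stretched skin (adjusted p = 0.00192) and by 1.35 ± 0.34 in control skin (adjusted p = 0.00670).

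*Dusp8* was lower in immune cells, with a log2 fold change of -1.75 ± 0.34 in stretched skin (adjusted p = 0.00228 by edgeR) and -1.76 ± 0.31 in control skin (adjusted p = 0.000780). *Dusp10* was lower as well, with -1.17 ± 0.23 in stretched skin (adjusted p = 0.00239) and -1.51 ± 0.31 in control skin (adjusted p = 0.00236). For *Dusp1*, immune and stromal control values did not overlap, but the log2 fold change of -0.86 ± 0.38 did not pass (adjusted p = 0.0784). That difference did pass under 5 of 19 alternatives, with adjusted p between 0.0152 and 0.265 over all 19. In stretched skin *Dusp1* gave 0.22 ± 0.31 (adjusted p = 0.576). *Dusp4*, *Dusp6* and *Dusp14* did not pass in either treatment. In control skin *Dusp14* passed under 4 of 19 alternatives, lower in immune cells, with adjusted p between 0.0280 and 0.314 over all 19. *Dusp6* passed there under 2 of 19, higher in immune cells, with adjusted p between 0.00713 and 0.381. In bulk samples, fewer cells of a type and less RNA per cell cannot be told apart.

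In 2 of the 8 immune libraries, some of these values and some marker sums were extreme together. The 2 immune libraries with the highest *Dusp16*, stretched 2 (164 CPM) and control 5 (136 CPM), also had the highest neutrophil marker sums of their groups, 33701 and 9019 CPM, and all 9 neutrophil genes had reads in each of the 8 immune libraries. The same libraries had the highest *Dusp5* of their groups, 596 and 324 CPM. They also had the lowest *Dusp8* of their groups, 8.51 and 8.14 CPM, and the lowest fibroblast marker sums, 1367 and 1436 CPM. Their blood endothelial, lymphatic endothelial, basal keratinocyte, skeletal muscle and mast cell marker sums were the lowest of their groups too. Across the 8 immune libraries the fibroblast sum was 2.43% to 17.2% of the stromal mean of the same treatment, and all 8 fibroblast genes had reads in each. Scaled to the library total as well, *Dusp8* was 9.39% to 41.6% and *Dusp10* 22.4% to 57.0% of its own stromal mean of the same treatment. The part of neutrophils or fibroblasts in these levels was not tested.

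**Figure D3:**
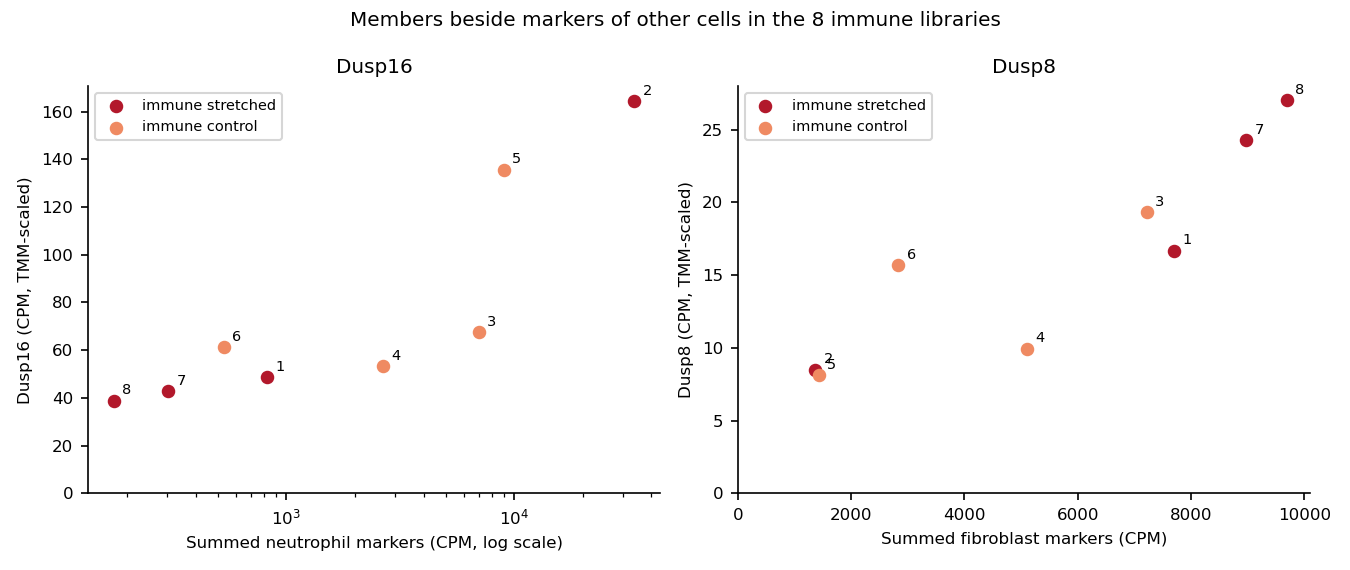
*Dusp16* against the neutrophil marker sum (left, log horizontal axis) and *Dusp8* against the fibroblast marker sum (right) in the 4 immune stretched and 4 immune control libraries, numbered by title; phosphatase levels are TMM-scaled CPM and marker sums CPM of the library total. Stretched 2 and control 5 hold the highest *Dusp16* with the highest neutrophil sums, and the lowest *Dusp8* with the lowest fibroblast sums.

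Stretched and control immune cells were compared to see where each transcript stood 6 h after the pressure. No member passed at an adjusted p under 0.05 in edgeR, and neither did any other of the 14183 genes tested (0%). At an unadjusted p under 0.05 there were 4 members, *Dusp1*, *Dusp2*, *Dusp4* and *Dusp10*, against 17.4% of all genes, and all 4 had positive fold changes. The groups did not overlap for 3 members, *Dusp1*, *Dusp2* and *Dusp4*, against 11.5% of all genes. DESeq2 called 781 and limma-voom 888 of all genes, *Dusp1* among them each time. The median log2 fold change was 0.65 over the 9 members, 7 of them positive, and -0.02 over all genes, 48.7% of them positive.

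*Dusp1* averaged 5656 ± 1384 CPM in immune stretched and 2309.5 ± 871 CPM in immune control cells (SD, n = 4 each). Its log2 fold change was 1.14 ± 0.42 (SE; adjusted p = 0.228, unadjusted p = 0.0211, edgeR). It passed with DESeq2 (1.11, adjusted p = 0.0252), with limma-voom (1.04, adjusted p = 0.0476) and with all 16 libraries in 1 edgeR fit (1.28, adjusted p = 0.0471), and the adjusted p ran from 0.0252 to 0.460 over 21 alternatives. Without immune control 4 and immune stretched 2 together it was 0.75 (adjusted p = 0.183). *Dusp2* had a log2 fold change of 0.65 ± 0.28 (adjusted p = 0.273), and *Dusp4* had 1.41 ± 0.60 (adjusted p = 0.270). With CPM scaled to the library total, *Dusp1* still did not overlap, at 3786 to 5329 CPM in immune stretched against 1936 to 3048 CPM in immune control cells, while *Dusp2* did, at 287 to 334 against 203 to 302 CPM. *Dusp4* overlapped on that scale too. *Dusp10* gave 0.78 ± 0.30 (adjusted p = 0.239) and *Dusp14* 0.95 ± 0.45 (adjusted p = 0.2999).

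*Dusp5* gave 0.58 ± 0.40 (adjusted p = 0.468, edgeR) and lay at -0.017 without immune control 4 and immune stretched 2 together. *Dusp16* gave -0.26 ± 0.52 (adjusted p = 0.820) with all libraries and -1.09 without immune stretched 2. *Dusp6* gave -0.29 ± 0.33 and *Dusp8* 0.33 ± 0.38, with overlapping groups. Beside depth, the marker sums also differed between the groups. Dendritic cell markers summed to 20197 to 60633 CPM in immune stretched and 9956 to 23031 CPM in immune control libraries. Macrophage markers summed to 8130 to 15123 CPM in immune stretched and 3113 to 8331 CPM in immune control libraries. Single markers did not all follow these sums. Scaled to the library total, the macrophage marker *Mrc1* had 143 to 432 CPM in immune stretched and 289 to 745 CPM in immune control libraries. The dendritic cell marker *Itgax* had 15.5 to 41.2 CPM in immune stretched and 22.1 to 42.1 CPM in immune control libraries on that scale. The part of these cell types in the differences was not tested, and depth and stretch cannot be told apart by group.

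In stromal cells no member passed the threshold after stretch, where 4.98% of 16074 genes passed. At an unadjusted p under 0.05 it was also 0 of 9, where 26.8% of all genes were. Stretched and control values overlapped for each member on the TMM scale, where they did not for 17.96% of all genes. *Dusp1* averaged 4422 ± 303 CPM in stromal stretched and 4518 ± 1153 CPM in stromal control cells (SD, n = 4 each), a log2 fold change of -0.02 ± 0.24 (SE; adjusted p = 0.968, edgeR). *Dusp10* had the smallest adjusted p, at 98.2 ± 5.54 CPM in stromal stretched and 76.4 ± 16.4 CPM in stromal control cells (0.37 ± 0.19, adjusted p = 0.222). Scaled to the library total, *Dusp10* did not overlap, at 93.1 to 112 CPM in stromal stretched against 52.0 to 81.6 CPM in stromal control cells (0.52, adjusted p = 0.0904). *Dusp6* had a log2 fold change of 0.96 ± 0.49 (adjusted p = 0.234), which was 0.25 without stromal stretched 8, the library with 146 CPM, and 0.00 without stromal stretched 7 and 8. It passed with limma-voom (1.55, adjusted p = 0.0440) and without the filter on low counts (0.94, adjusted p = 0.0480), and was -0.23 with the covariate for detected genes. *Dusp4* gave 0.89 ± 0.56, at 7.42 ± 2.71 CPM in stromal stretched and 4.07 ± 2.68 CPM in stromal control cells. The other 5 members lay between -0.44 (*Dusp14*) and 0.29 (*Dusp8*), with adjusted p from 0.323 to 0.931. The median was 0.21 over the 9 members, 7 of them positive, and 0.01 over all genes, 50.6% of them positive.

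The difference between the stretch effects, immune minus stromal, was tested with an interaction term over all 16 libraries. No member passed, nor any of the 18295 genes tested (0%), although 1495 genes passed without immune control 6, 114 without immune stretched 2 and 29 without immune control 4, with 0 members each time. The 2 members *Dusp1* and *Dusp14* had an unadjusted p under 0.05, against 23.1% of all genes. DESeq2 called 1625 genes with no member among them, and limma-voom 1453 with *Dusp1* (1.04, adjusted p = 0.0449). *Dusp1* gave a difference of 1.31 ± 0.48 on the log2 scale (adjusted p = 0.134, edgeR). *Dusp14* gave 1.55 ± 0.55 (adjusted p = 0.127), with positive immune and negative stromal fold changes that passed in neither fraction. *Dusp6* gave -1.07 ± 0.64 (adjusted p = 0.327). A stretch effect that differs between the fractions was not detectable for any member at this spread and depth by edgeR.

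**Figure D4:**
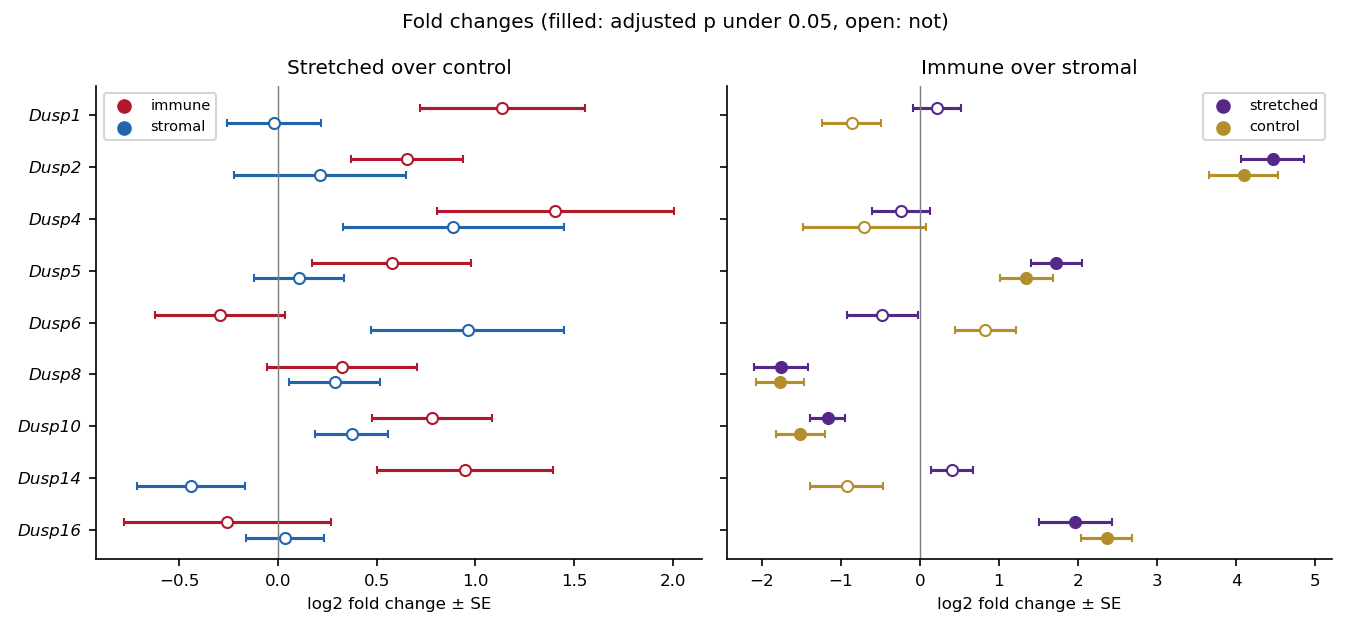
Log2 fold change ± SE of each member, stretched over control on the left (immune and stromal cells) and immune over stromal on the right (stretched and control skin), with n = 4 libraries per group; filled points have an adjusted p under 0.05 in edgeR. *Dusp2*, *Dusp5*, *Dusp8*, *Dusp10* and *Dusp16* are filled on the right in both treatments, and no point is filled on the left.

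The kinases these phosphatases act on, and the genes downstream, were read from 6 lists. In immune cells no listed gene passed after stretch in edgeR, nor did any for the difference between the stretch effects. At an unadjusted p under 0.05 in immune cells there were 5 of 17 ERK cascade genes, 2 of 17 JNK and p38 cascade genes, 2 of 13 ERK feedback and output genes, 1 of 15 immediate early genes, 2 of 12 MAP kinase-responsive transcription factors and 4 of 16 other phosphatases, where 17.4% of all genes were. The share was above that of all genes for the ERK cascade and the other phosphatases and below it for the rest. *Map2k1*, which encodes the kinase directly above ERK, had 119.8 ± 26.5 CPM in immune stretched and 51.9 ± 15.7 CPM in immune control cells (log2 fold change 1.05 ± 0.27, adjusted p = 0.156). *Map2k3*, whose product activates p38, had 333 ± 59.7 CPM in immune stretched and 153 ± 42.3 CPM in immune control cells (0.95 ± 0.27, adjusted p = 0.169). *Fosl1*, an AP-1 gene that ERK signalling induces, had 13.4 ± 3.68 CPM in immune stretched and 3.61 ± 2.10 CPM in immune control cells (1.71 ± 0.44, adjusted p = 0.156). Groups did not overlap for any of these 3 genes. Other listed genes had negative fold changes. *Elk4* and *Elk3*, which encode partners of serum response factor, did not overlap either: *Elk4* had 55.2 ± 11.9 CPM in immune stretched and 83.9 ± 9.86 CPM in immune control cells (-0.79 ± 0.24, adjusted p = 0.185), and *Elk3* had 31.4 ± 4.54 CPM in immune stretched and 44.3 ± 10.9 CPM in immune control cells (-0.70 ± 0.26, adjusted p = 0.225). *Spry2* (-0.97 ± 0.35, adjusted p = 0.220) and *Sos1* (-0.90 ± 0.31, adjusted p = 0.214) had overlapping groups.

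In stromal cells 4 listed genes passed after stretch, all with an adjusted p close to the threshold. No gene at all, and so none of these 4, passed without stromal stretched 7 or 8, without stromal control 1, 2 or 3, or with all 16 libraries in 1 fit. *Spry2*, an inhibitor of receptor signalling to ERK and the 1 of 14 tested ERK feedback and output genes that passed, fell to 17.2 ± 4.23 CPM in stromal stretched cells, against 32.02 ± 6.63 CPM in stromal control cells (-0.89 ± 0.23, adjusted p = 0.0497 by edgeR). *Dusp23*, a small atypical phosphatase and the 1 of 16 other MAP kinase or dual specificity phosphatases that passed, fell to 13.7 ± 3.59 CPM in stromal stretched cells, against 30.4 ± 4.53 CPM in stromal control cells (-1.15 ± 0.22, adjusted p = 0.0424). Of 12 MAP kinase-responsive transcription factors 2 rose, *Mef2d* (0.60 ± 0.15, adjusted p = 0.0474) and *Ets1* (1.11 ± 0.28, adjusted p = 0.0485). None passed among 17 ERK cascade, 17 JNK and p38 cascade and 15 immediate early genes, where 4.98% of all genes passed. At an unadjusted p under 0.05 there were 6, 9 and 5 of these, where 26.8% of all genes were. The other lists had 6 of 14 ERK feedback and output genes, 6 of 12 MAP kinase-responsive transcription factors and 7 of 16 other phosphatases at such a p. The share lay above that of all genes for each of the 6 lists. DESeq2 and limma-voom were not counted for the lists.

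Between the fractions more listed genes passed, and so did more of all genes, 48.96% in stretched and 49.4% in control skin. In stretched skin the share that passed lay below that background for each of the 6 lists. In control skin it lay above it for the ERK cascade and the MAP kinase-responsive transcription factors and below it for the other 4. Of the 17 ERK cascade genes, 5 were higher and 1 lower in immune cells of stretched skin, and 7 higher and 7 lower in control skin. *Egfr*, the epidermal growth factor receptor, had 23.3 ± 11.2 CPM in immune and 151 ± 22.5 CPM in stromal cells of stretched skin (-2.83 ± 0.41, adjusted p = 0.000476 by edgeR), and *Rps6ka1*, a kinase that ERK activates, had 48.0 ± 12.9 CPM in immune and 5.31 ± 2.29 CPM in stromal cells (3.03 ± 0.37, adjusted p = 0.000152). Of the 17 JNK and p38 cascade genes, 3 were higher and 2 lower in stretched skin and 4 higher and 2 lower in control skin, with *Map3k1*, an upstream kinase of JNK, at 2.49 ± 0.30 and 3.11 ± 0.22. Immediate early genes were mostly lower in immune cells where they passed, with 4 lower and 1 higher of 15 in stretched skin and 6 lower and 0 higher in control skin. *Egr1* had 1531 ± 616 CPM in immune and 5388 ± 1733 CPM in stromal cells of stretched skin. ERK feedback and output genes gave 6 lower and 1 higher of 15 in stretched skin and 3 lower and 1 higher of 14 in control skin, with *Myc* at -2.27 ± 0.40 and -2.48 ± 0.36. MAP kinase-responsive transcription factors gave 3 higher and 2 lower of 12 in stretched skin and 7 higher and 0 lower in control skin.

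Of the other phosphatases, 3 were higher and 2 lower of 17 in stretched skin, and 3 higher and 3 lower of 16 in control skin. *Ptpn7*, the leukocyte tyrosine phosphatase of ERK and p38, had 23.3 ± 4.83 CPM in immune and 0.446 ± 0.255 CPM in stromal cells of stretched skin (5.53 ± 0.42, adjusted p = 8.10e-06 by edgeR). *Dusp3*, a small phosphatase of ERK and JNK, was higher in immune cells by 1.43 ± 0.26 in stretched and 1.33 ± 0.31 in control skin. *Dusp7*, a cytoplasmic ERK phosphatase related to *Dusp6*, was lower by -1.63 ± 0.37 in stretched and -1.08 ± 0.32 in control skin.

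The genes whose levels ran most like each member were read from the Pearson r of log2(CPM + 1) over the 16 libraries, with each fraction centred on its own mean, among 13127 genes tested in both stretch comparisons. These r values are descriptions, since libraries of a fraction share treatment, depth and scaling. *Dusp1* ran most like *Ppt1* (r = 0.96), *Syap1* (0.95) and *Dazap2* (0.95), and *Dusp2* like *Cd82* (0.89), *Otulinl* (0.87) and *Chaf1b* (0.85). *Dusp5* ran most like *Sde2* (0.93), *Gadd45b* (0.92) and *Ppp1r18* (0.91), and *Dusp6*, with the lowest likeness, like *Spint1* (0.81), *Acpp* (0.80) and *Cyfip2* (0.79). *Dusp8* ran most like *Ptger3* (0.95), *Klf9* (0.92) and *Dmwd* (0.91), and *Dusp10* like *Pacsin2* (0.96), *Dpp3* (0.96) and *Nup88* (0.94). *Dusp14* ran most like *Xlr* (0.91), *Vamp3* (0.90) and *Cope* (0.89), and *Dusp16* like *Rdh12* (0.96), *Btbd9* (0.95) and *Gfod1* (0.94). *Dusp4* did not reach a group mean of 10 CPM and was left out.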

How the data were processed

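The deposited table holds raw counts per Ensembl gene ID for 16 libraries, with no normalization by the authors. The SMART-Seq mRNA LP kit gave the cDNA and Nextera XT the libraries, per the labels' protocols. STAR, FastQC 0.11.9 and the build mm10 are named in the submitters' processing notes. How reads were counted, by strand or not, with which annotation, and what became of multi-mapping reads is not given in the sources. Symbols, spans and exon lengths came from GENCODE M21 (GRCm38), which matched 55394 of 55487 IDs.

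Each comparison was fitted on its own groups (the difference on all 16 libraries) with edgeR 4.0.16 under R 4.3.3: filterByExpr (minimum count 10, total 15), TMM factors, the quasi-likelihood test and Benjamini-Hochberg adjustment over all genes tested. SE was the log2 fold change over the root of F. The scripts were tested on simulated counts. Alternatives were RLE factors, DESeq2 1.42.0, limma-voom (limma 3.58.1) with sample weights, other filters (none, or 50 reads in 4 libraries), all 16 libraries in 1 fit, a replicate block, a detected-gene covariate, length and GC offsets (splines, 4 degrees of freedom, prior count 2) and left-out libraries. Library-total scaling and the joint omission of immune control 4 and immune stretched 2 were chosen after seeing the data. No molecular identifiers mark PCR copies, so reads are not independent molecules.

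The members and lists were chosen with earlier results of these data known. The naming rule took all 9 members, up to 4 genes per list and comparison with the smallest p, of which a subset is printed, and the 3 nearest genes of each member that reached a group mean of 10 CPM. Chi-square per degree of freedom was 25.1 to 247 between libraries of a group, so none was a copy.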

Additional observations from a re-analysis of the deposited data

Results flagged for a closer look

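*Dusp16*, which encodes a phosphatase of JNK and p38, stood at 164.4 CPM in immune stretched library 2, far from 38.8, 42.8 and 48.8 CPM in the other 3 immune stretched libraries. It was flagged because its gap to the next library took up more of the range of its group than Dixon's test allows at 4 samples, and it was 1 of 36 groups of 4 so examined, where chance flags about 1 in 20. That library also held the highest neutrophil marker sum, 33701 CPM, and its part in the *Dusp16* level was not tested.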

How the results depend on the processing

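The same 5 members passed the sort comparisons in edgeR and in most alternatives, with 3 calls lost in stretched and 1 in control skin, and no called value changed its sign in any of them. In control skin calls were also gained, *Dusp1* under 5 alternatives, *Dusp14* under 4 and *Dusp6* under 2. The count there was 7 with limma-voom, with all 16 libraries in 1 fit and with the covariate for detected genes, and 6 with DESeq2, the stricter filter, scaling to the library total and without immune control 3. The count of members called after stretch was 0 in each fraction and for the difference, and it became 1 in stromal cells with limma-voom and without a filter (*Dusp6*), 1 in immune cells with DESeq2, limma-voom and all 16 libraries in 1 fit (*Dusp1*), and 1 for the difference with limma-voom (*Dusp1*). Leaving out each library in turn gave 0 members called in each stretch comparison. Some values turned their sign. *Dusp6* after stretch in stromal cells was -0.23 with detected genes as a covariate. *Dusp8* and *Dusp10* after stretch in stromal cells were -0.12 and -0.44 with the replicate block. *Dusp5* after stretch in immune cells was -0.017 without immune control 4 and immune stretched 2 together. *Dusp2* for the difference was -0.10 without stromal stretched 7 and 8 and immune control 4. *Dusp6* between the fractions in stretched skin was 0.35 with the covariate and 0.48 without stromal stretched 7 and 8. It ran from -0.72 to 0.20 over the single libraries left out. Uncalled values under 1 SE whose sign changed were not counted as turned. The cause was not tested.

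The values did not show a pairing of samples by title number. Of 8 same-numbered pairs, 2 had a correlation of deviations over 0.1 (range -0.09 to 0.17), and 1 library was closest to its own number. Such a correlation is taken between different cell fractions, so it cannot tell whether same-numbered samples share an animal. By the labels, numbers 1, 2, 5 and 6 carry opposite treatments in the immune and stromal fractions. In the fit with a replicate block on the title number, *Dusp8* and *Dusp10* in stromal cells after stretch were -0.12 and -0.44, *Dusp10* between the fractions in stretched skin was -0.59 (adjusted p = 0.207) and *Dusp5* in control skin 1.16 (adjusted p = 0.0505).

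Scaling to the library total moved the median of all genes by 0.14 in stromal cells, by -0.23 in immune cells and by -0.55 for the difference, and by -0.11 and 0.21 between the fractions in stretched and control skin. It moved the share of higher genes among the calls in stromal cells to 69.1%, against 41.1% with TMM. Over all genes in stromal cells, DESeq2, limma-voom and the fit without a filter called 2312, 3599 and 2115 genes, where edgeR with the filter called 800. The stricter filter called 1378, length and GC offsets 4, the covariate 1, and all 16 libraries in 1 fit and the replicate block 0. Leaving out 1 stromal library gave 0 genes without stretched 7 or 8 or control 1, 2 or 3, 2 without stretched 6, 719 without control 4 and 1589 without stretched 5. In immune cells, where edgeR called 0, 45 were called without stretched 2 and 667 with all 16 libraries in 1 fit. For the difference, the fit without a filter called 3924 and the stricter filter 120. RLE factors moved the median of the difference by -0.22. With exon length taken from the longest transcript, *Dusp1* made up 85.0% of the pool in immune stretched and 78.3% in immune control cells, and 93.5% in stromal stretched and 94.5% in stromal control cells. The stricter filter left no *Dusp4* value in immune cells after stretch or between the fractions in control skin. Depth limits *Dusp4* most, with 3 reads in each of immune controls 4 and 5.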
